A study of Mus musculus with 14 samples.

Results

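The 10 genes of the immediate early response, Ier2, Fos, Fosb, Jun, Junb, Egr1, Dusp1, Nr4a1, Atf3 and Ier3, were followed in the epididymal fat of young mice from dams fed freely or food restricted. Every probe set annotated to one of them was taken, which gave 11 probe sets for the 10 genes, 2 of them for Jun, out of 22690 probe sets and 12393 genes. Of the 10 genes, 6 were bright enough to enter the test across 7436 genes (Ier2, Fos, Jun, Egr1, Dusp1 and Nr4a1), and Ier3, Atf3, Junb and Fosb fell under its limit, a mean signal of 637 over all arrays. All mice were of ICR, an outbred strain, labelled male and 3 weeks old, and RNA was taken from the epididymal fat pad, a white fat depot that lies against the epididymis. In the CC group (n = 5) the dams ate ad libitum during pregnancy and lactation. In the UC group (n = 5) the dams received 50% less food than matched controls during pregnancy and ate ad libitum while nursing. In the UU group (n = 4) the 50% restriction ran through pregnancy and suckling. UC against CC therefore addresses restriction confined to life in utero, and UC against UU the release from it after birth. Nothing in the labels tells which mice shared a litter, and p-values therefore measure only the spread between these samples.

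Immediate early genes are transcribed within minutes of a stimulus, without new protein being made, because the factors that switch them on are already present in the cell. Kinases of the ERK, p38 and JNK cascades and protein kinase A activate serum response factor with its ETS partners and the cAMP response element binding protein, which occupy the promoters of these genes, and several of the products then act as transcription factors or as brakes on the same kinases. In fat, insulin, catecholamines and the first steps of adipocyte differentiation are known to induce members such as Fos, Egr1 and Nr4a1.

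None of Dusp1, Nr4a1 and Fos passed the test in any comparison. Their promoters are shown because they carry the cAMP response element or its core more than once. They are the 250 bases before the annotated start in RefSeq, build GRCm38.p6, read 5′ to 3′ on the gene's own strand, and capitals mark TGACG, the core of the cAMP response element, on either strand (CGTCA when it lies on the other strand). The first lies at chr17:26508473-26508722 on the minus strand, the second at chr15:101266596-101266845 on the plus strand and the third at chr12:85473640-85473889 on the plus strand.
Dusp1: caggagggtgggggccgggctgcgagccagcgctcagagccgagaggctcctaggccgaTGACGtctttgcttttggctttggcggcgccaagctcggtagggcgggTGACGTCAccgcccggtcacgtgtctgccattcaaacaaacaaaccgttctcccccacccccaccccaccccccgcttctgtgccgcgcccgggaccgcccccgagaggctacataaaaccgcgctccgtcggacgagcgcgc
Nr4a1: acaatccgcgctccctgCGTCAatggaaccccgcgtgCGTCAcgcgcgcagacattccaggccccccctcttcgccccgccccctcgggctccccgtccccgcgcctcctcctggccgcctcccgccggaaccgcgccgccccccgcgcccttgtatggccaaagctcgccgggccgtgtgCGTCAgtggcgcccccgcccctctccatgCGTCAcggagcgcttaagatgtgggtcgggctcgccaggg
Fos: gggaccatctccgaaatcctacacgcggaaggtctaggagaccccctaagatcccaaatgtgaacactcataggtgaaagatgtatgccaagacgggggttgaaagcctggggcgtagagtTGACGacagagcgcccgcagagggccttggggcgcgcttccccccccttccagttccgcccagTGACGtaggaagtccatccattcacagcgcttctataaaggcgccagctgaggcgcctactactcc

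In the Dusp1 promoter the full element TGACGTCA lies at -143 to -136 from the start, where it contains 2 overlapping cores, and a further core begins at -191. Nr4a1 has 4 cores, which begin at -233, -213, -69 and -40, and Fos has 2, at -129 and -66, ahead of a TATAAA at -33. Promoters of 8 of the 10 genes were read from the RefSeq table, and those of Ier2 and Egr1 were left out. Each reached from 250 bases before the start to 50 after it. The core TGACG was found on either strand in 6 of the 8 (Dusp1, Nr4a1, Fos, Fosb, Junb and Atf3) and in 20.8% of all 32851 promoters of that length. The full TGACGTCA was found in 1 of the 8 and in 1.79% of all. GCGNGGGCG, the motif of the EGR zinc fingers, was in 2 (Fosb and Nr4a1) against 5.55%, CCGGAA, an ETS motif, in 1 (Nr4a1) against 14.9%, and TATAAA in 2 (Junb and Fos) against 13.6%. The TATAAA of Junb begins at the annotated start itself, not ahead of it. TGANTCA, the AP-1 motif, was in 7.81% of all promoters and in none of the 8, and the CArG box bound by serum response factor in 1.63% and in none of the 8. The core contains the dinucleotide CG, and the shown promoters had a G and C content of 68.4% (Dusp1), 74.4% (Nr4a1) and 58.4% (Fos). These matches describe letters in these windows and were not tested for binding. Motifs farther from the start, and those of Ier2 and Egr1, were not searched for.

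The pads differed in what they contained, and this touches every comparison. The mean log2 level of 8 adipocyte markers lay between 12.54 and 14.25 in all arrays. It was lower in UU, at 13.02 ± 0.53 against 13.77 ± 0.29 in CC and 13.89 ± 0.39 in UC (SD), and all 8 markers lay below 0 in UU against CC, with a median of -0.89. The level of 14 macrophage markers was lower there as well, at 10.85 ± 0.38 in UU against 11.90 ± 0.62 in CC and 11.78 ± 0.56 in UC, with 13 of the 14 below 0 in UU against CC, a median of -1.08 and 10 at an unadjusted p under 0.05. The mean of 7 tested markers of the epididymal epithelium, a tissue that borders the pad, was low in 4 pads (CC2, CC4, UC2 and UC5, where the digit is the replicate number), at 6.94 to 8.72, and stood at 11.34 to 13.59 in the other 10. All mice were labelled male, but Xist, the RNA of the inactive X chromosome, reached 14479 in CC2 and 9137 in UC5, while the other 12 arrays did not exceed 80.1. The Y-linked Eif2s3y stood at 58.6 and 7.9 in these 2 pads and at 1235 to 2234 in the others, so their readings go against the male label, and both are among the 4 pads low in epididymal markers. Alb, the albumin transcript of liver, was higher in every UC pad (1324 to 25660, the highest in UC2) and every UU pad (1022 to 1520) than in any CC pad (550.4 to 962). All 6 tested liver markers lay above 0 in UC against CC, with a median of 1.68 and 4 at an unadjusted p under 0.05. The mean of 5 tested skeletal muscle markers was 11.39 in CC2 and 11.56 in CC5, and 8.44 to 9.75 in the other arrays. The log2 ratio of 3′ to 5′ probe set signals of Gapdh and Actb, a measure that rises with RNA degradation, was highest in UC1, UC4 and UU3 (1.63, 1.60 and 2.11) and did not exceed 1.08 in the other 11 arrays. In whole pads, fewer cells of a type and less RNA per cell cannot be told apart.

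Ier2 set the UC pads apart from the others most clearly. It was the only one of the 10 to pass the test in any comparison, and it fell 2.42-fold in UC relative to UU. Of the 6 tested genes, 4 had an unadjusted p under 0.05 on the lower side in UC against CC (Ier2, Nr4a1, Dusp1 and Egr1), and Nr4a1 alone did so in UU against CC. The plot of signals by array shows each value.

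**Figure D1:**
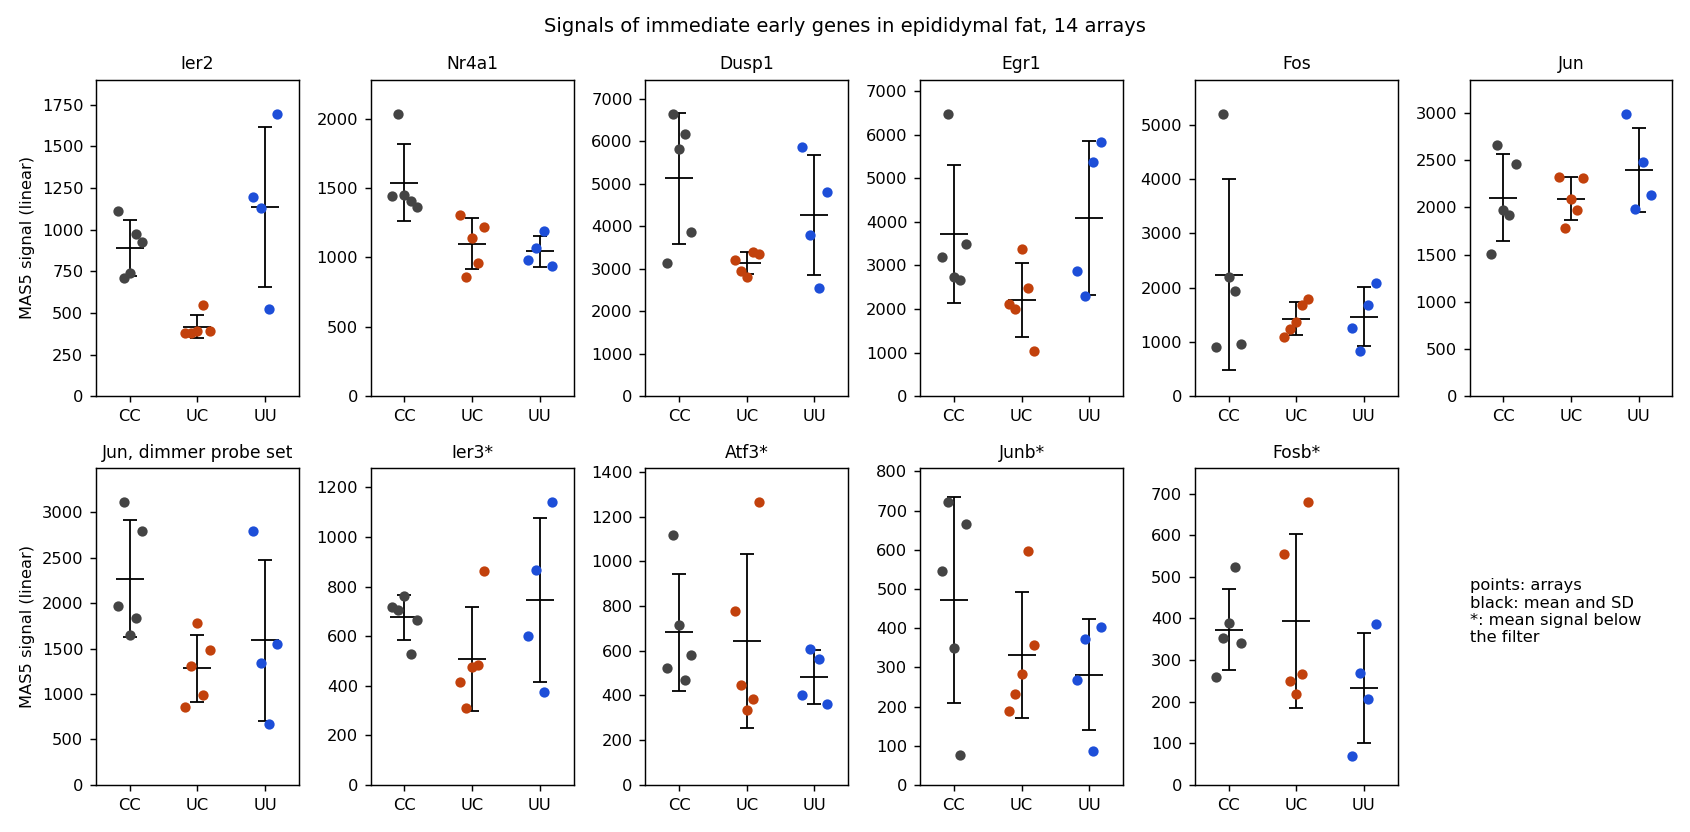
Deposited MAS5 signals on a linear scale (y axis) of the 10 genes in CC (n = 5), UC (n = 5) and UU (n = 4), 1 panel for each gene's brightest probe set and 1 for the dimmer Jun probe set. Points are arrays, black marks give the mean and SD, and asterisks mark genes under the signal limit. The 5 UC values of Ier2, from 379.5 to 545, lie below all 5 CC values, and the UC and UU values of Nr4a1 all lie below its CC values.

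In UC against CC, limma called none of the 6 tested genes at an adjusted p under 0.05. The background was 0 of 7436 genes called (0%), with 654 at an unadjusted p under 0.05. The 4 members lower at that unadjusted level stand against 3.99% of all tested genes lower and 4.8% higher. Groups did not overlap for 2 members, Ier2 and Nr4a1, both lower in UC, against a background of 0.767% of genes lower without overlap. With the fit of all 12393 genes, 9 of the 10 members had a log2 difference below 0 and the median member was at -0.40, while 49.9% of all genes lay below 0 and their median was 0.00.

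In UU against CC, limma again called none of the 6, and the background was also 0%, with 1213 genes at an unadjusted p under 0.05. The single member below that level, Nr4a1, stands against 7.75% of genes lower and 8.57% higher. It was also the only member whose groups did not overlap, against a background of 3.63% of genes lower without overlap. Of the 10 members, 6 lay below 0 with a median of -0.33, whereas 40.9% of all 12393 genes lay below 0 and their median was 0.09. This comparison shares its CC arrays with UC against CC.

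In UC against UU, 1 of the 6 tested members was called, against 63 of 7436 genes (0.847%), of which 54 were higher and 9 lower. Ier2 and Egr1 were lower at an unadjusted p under 0.05, against 8.8% of genes lower and 9.24% higher. No member was without overlap in either direction, and 2.61% of genes were lower without overlap. Of the 10 members 5 lay below 0 with a median of -0.08, close to the median of -0.09 for all 12393 genes. Of the 6 tested members 4 lay below 0 with a median of -0.28, beside -0.06 and 56.7% below 0 for the 7436 genes. Over the 30 exact permutation tests of 10 genes in 3 comparisons, no gene passed adjustment, and the smallest adjusted value was 0.0794.

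**Figure D2:**
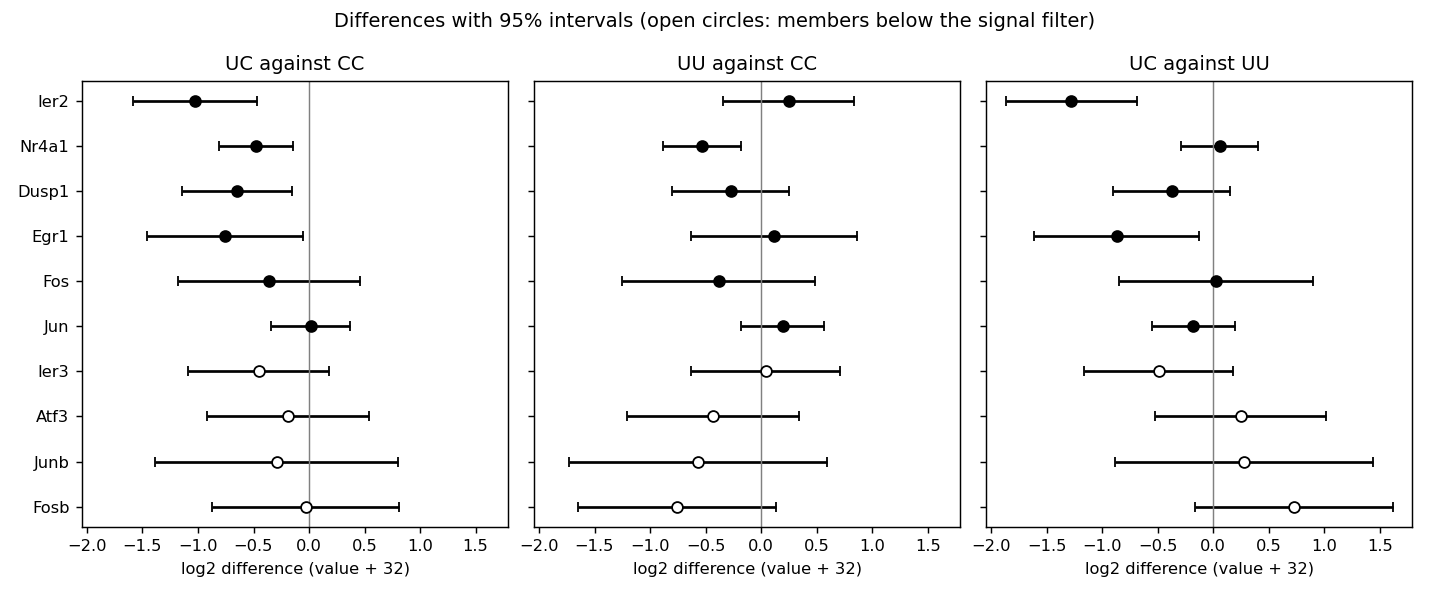
Log2 differences of log2(signal + 32) with 95% intervals from limma (x axis) for the 10 genes (y axis), with 1 panel for each pair of groups. Filled circles are genes in the fit of 7436 genes and open circles genes under the signal limit, from the fit of all 12393 genes. In UC against CC 9 of 10 lie left of 0, and in the other comparisons the genes lie on both sides.

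Ier2 encodes a nuclear protein that acts as a transcriptional regulator. Its signals in CC replicates 1 to 5 were 1113, 708, 742, 971 and 923. In UC they were 380.1, 379.5, 393, 545 and 393.5, and in UU 1196, 1127, 525 and 1696. All 5 UC values were below every CC value, and 4 of the 5 were below every UU value, the exception being UC replicate 4 beside UU replicate 3. Group means were 892 ± 168 in CC, 418 ± 71.3 in UC (SD, n = 5 each) and 1136 ± 480 in UU (SD, n = 4). Ier2 fell in UC against UU by 1.28 on the log2 scale (SE 0.28, 95% interval -1.87 to -0.69, limma adjusted p = 0.0488), with UC below UU in 19 of 20 array pairs (exact permutation test, two-sided, p = 0.0159).

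This call lies at the edge of the threshold. It was made in 13 of 32 fits, with adjusted p-values from 0.0181 to 0.201, and it was lost when any array other than UU replicate 3 or CC replicate 2 was left out. The log2 difference itself ran from -1.68 to -1.05 over these fits. Against CC the difference was -1.03 (SE 0.26, 95% interval -1.59 to -0.47), a 2.04-fold lower level that did not pass (limma adjusted p = 0.436; exact permutation test, two-sided, p = 0.00794, the smallest that groups of 5 allow). UU and CC differed by 0.25 (95% interval -0.34 to 0.84), an interval that includes 0. In the order UC, CC, UU neither pair of neighbours passed the test, and only UC against UU was called.

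Ier2 was as low in the UC pads poor in epididymal markers as in the others. In the 4 pads low in these markers its log2 difference between UC and CC was -1.04, and in the 10 others it was -1.02. In the pads with Xist signal, Ier2 stood at 708 in CC replicate 2 and 393.5 in UC replicate 5, the lowest of the CC values and the second highest of the UC values. The level moved with the 3′ to 5′ ratio over the 14 arrays (Pearson r = -0.54, permutation p = 0.0471, Spearman rho = -0.60, permutation p = 0.0279), r was -0.47 without the 2 arrays farthest from the median ratio, -0.68 after group means were subtracted and -0.65 over the 10 pads high in epididymal markers, and the adjusted p over 80 such relations was 0.361. With that ratio as a covariate the UC to CC difference shrank from -1.03 to -0.71, and with the epididymal level as a further covariate to -0.68. UC replicates 2, 3 and 5 had ratios of 0.897 to 1.004 and Ier2 signals of 379.5 to 393.5. CC replicates 2 and 3 had higher ratios of 1.08 and 1.03 with signals of 708 and 742. These arrays were picked for like ratios after the data were seen, and the part of the ratio was not tested. With the liver markers, which were higher in UC, Ier2 had r = -0.39 (permutation p = 0.172, rho = -0.27, permutation p = 0.341), r = -0.12 without the 2 farthest arrays and -0.01 after group means were subtracted. The lower adipocyte and macrophage levels of UU stand beside its comparison with UC, and their part was not tested.

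**Figure D3:**
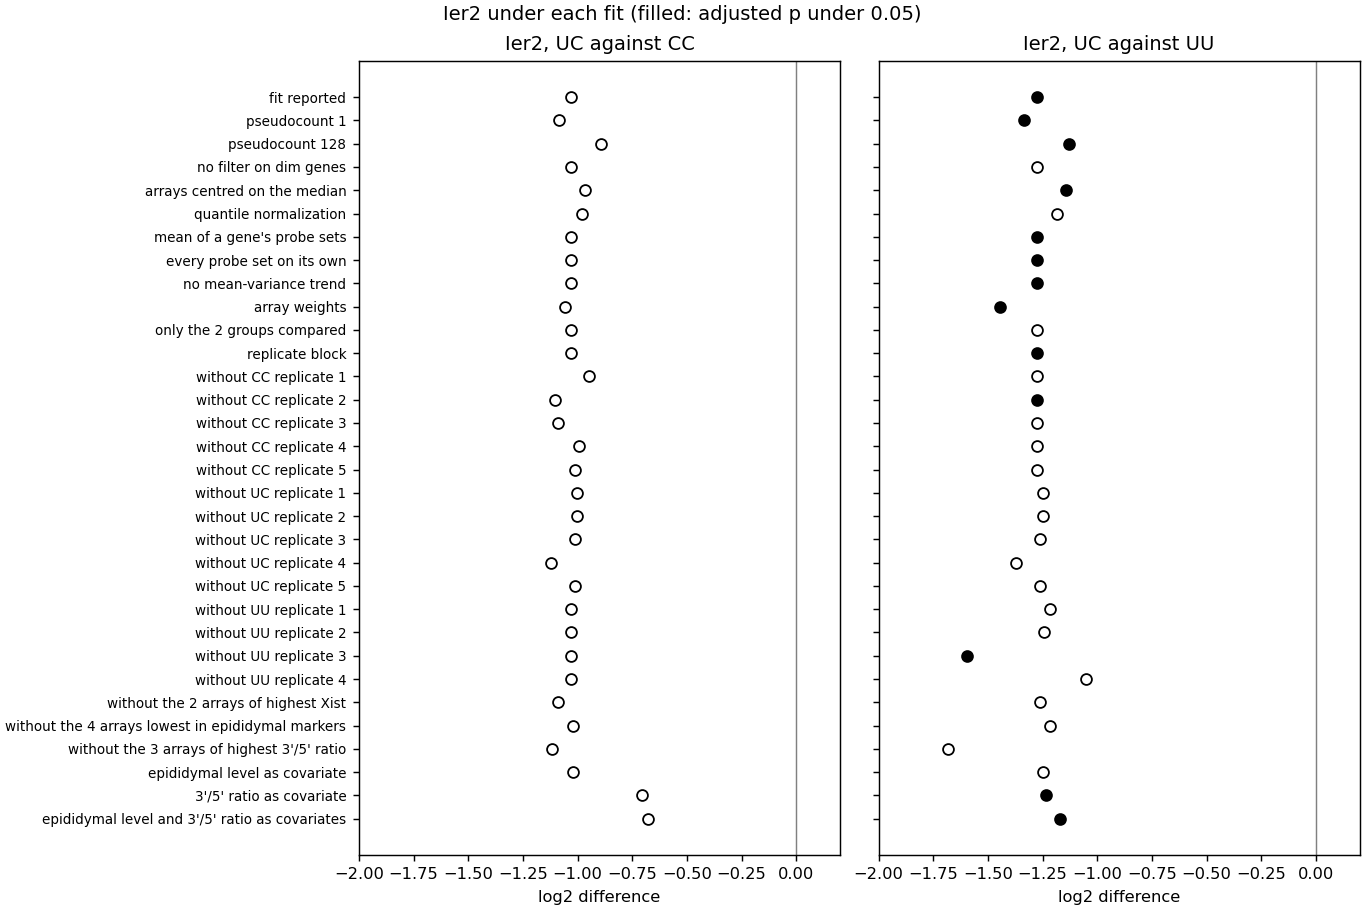
Log2 difference of Ier2 (x axis) in UC against CC and in UC against UU under each fit (y axis), with filled circles for an adjusted p under 0.05. All values lie below 0 in both panels, and filled circles appear only in UC against UU, in 13 of 32 fits.

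Ier3, an early gene product that affects cell survival and ERK signalling, shared the low values of UC in part. Its mean signal of 636 put it just under the limit of 637, so its differences come from the fit of all 12393 genes. Signals were 717, 705, 764, 527 and 663 in CC, 414, 309, 477, 483 and 863 in UC and 600.3, 865, 377 and 1139.8 in UU. UC replicates 1 to 4 were below all CC values, while UC replicate 5, one of the pads with Xist signal, was above them. The log2 difference was -0.45 ± 0.30 (SE) between UC and CC, 0.04 ± 0.32 between UU and CC and -0.49 ± 0.32 between UC and UU, and none passed. Like Ier2, Ier3 moved with the 3′ to 5′ ratio (r = -0.54, permutation p = 0.0455, rho = -0.53, permutation p = 0.0527). Here r was -0.30 without the 2 farthest arrays and -0.52 after group means were subtracted. With the liver markers Ier3 had r = -0.60 (permutation p = 0.0199), and -0.30 without the 2 farthest arrays. Both adjusted p-values were 0.361, and the part of these measures was not tested.

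Nr4a1, an orphan nuclear receptor that catecholamines and other signals induce, was low in both groups that had been restricted in utero. Signals were 1445, 2037, 1453, 1405 and 1362.5 in CC, 1306.5, 861, 1139, 960.5 and 1223 in UC and 984, 1071, 1192 and 937 in UU. Every UC and every UU value was below the lowest CC value of 1362.5, the closest being 1306.5 in UC replicate 1, and UC and UU overlapped. Means were 1541 ± 280 in CC, 1098 ± 184 in UC (SD, n = 5 each) and 1046 ± 112 in UU (SD, n = 4). The log2 difference from CC was -0.48 in UC (SE 0.16, limma adjusted p = 0.512) and -0.53 in UU (SE 0.16, limma adjusted p = 0.163), and the exact two-sided permutation p was 0.00794 in both. UC and UU differed by 0.06 (95% interval -0.29 to 0.41).

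The Nr4a1 differences did not pass in any fit, and stayed below 0 in all 32, from -0.61 to -0.33 for UC relative to CC and from -0.63 to -0.43 for UU relative to CC. The highest value, 2037, belonged to CC replicate 2, the pad with Xist signal and few epididymal transcripts, and without that array the differences were -0.37 and -0.43. Among the array measures, the mean level of 6 liver markers had the closest relation to Nr4a1 (Pearson r = -0.71, permutation p = 0.00552, Spearman rho = -0.76, permutation p = 0.00209, adjusted p over 80 relations 0.268 for r), with r = -0.60 without the 2 arrays of most extreme liver level and -0.56 after group means were subtracted. That liver level was 8.45 ± 0.55 in CC, 10.34 ± 1.68 in UC and 9.59 ± 0.23 in UU (SD), and its part in the Nr4a1 difference was not tested, nor was that of the lower adipocyte and macrophage levels of UU. With the skeletal muscle markers, high in CC replicates 2 and 5, Nr4a1 had r = 0.58 (permutation p = 0.0336, adjusted p 0.361). Its rho was 0.20 (permutation p = 0.483). Without the 2 farthest arrays r was 0.17, and after group means were subtracted 0.40. The part of these markers was not tested.

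Egr1, a zinc finger transcription factor induced by insulin and growth factors, had signals of 3186, 6482, 2742, 2656 and 3496 in CC. UC values were 2121, 1992, 3388, 2478 and 1043, and UU values 2868.5, 2307, 5368.5 and 5829.8. UC replicates 1, 2, 4 and 5 were below every CC value, UC replicate 3 lay inside the CC range, and UU spanned low and high values. The log2 difference was -0.76 ± 0.33 (SE) for UC against CC (limma adjusted p = 0.553; exact permutation p = 0.0397) and -0.87 ± 0.35 for UC against UU (limma adjusted p = 0.216; exact permutation p = 0.0952). For UU against CC it was 0.12 ± 0.35. The UC to CC difference was -1.50 among the 4 pads low in epididymal markers (2 UC and 2 CC) and -0.26 among the 10 others. Those 4 include the pads with Xist signal, CC replicate 2 at 6482 and UC replicate 5 at 1043. Without these 2 pads the UC to CC difference was -0.29. Whether the difference depends on epididymal content or on these 2 pads was not tested. In UC against UU the difference was -0.53 among the 10 pads high in epididymal markers, which include all UU pads. The group differences in liver, adipocyte and macrophage markers run beside these values, and their part was not tested. UC replicate 5, at 1043, had the lowest Egr1 signal of all arrays.

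Dusp1 encodes a phosphatase that switches off p38 and JNK and is itself induced through them. Its signals were 3135, 6656, 5821, 6166 and 3872.5 in CC, 3197, 2945, 2798, 3405 and 3352 in UC and 5874, 3795, 2560.3 and 4806 in UU. The UC values lay close together, 2 of them under the lowest CC value and 3 just above it, with a coefficient of variation of 8.32% against 29.9% in CC and 33.2% in UU. Means were 5130 ± 1536 in CC, 3139 ± 261 in UC (SD, n = 5 each) and 4259 ± 1415 in UU (SD, n = 4). The log2 difference for UC against CC was -0.65 ± 0.23 (SE, limma adjusted p = 0.516; exact permutation p = 0.0317), with UC below CC in 22 of 25 array pairs. UU against CC gave -0.27 ± 0.25 and UC against UU -0.38 ± 0.25. Among the 4 pads low in epididymal markers UC and CC differed by -1.02, and among the 10 others by -0.40. Dusp1 had r = -0.54 with the liver markers (permutation p = 0.0415, rho = -0.54, permutation p = 0.0505, adjusted p over 80 relations 0.361 for r), with r = -0.53 without the 2 farthest arrays and -0.24 after group means were subtracted.

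AP-1 is a dimer of Fos and Jun family proteins, and its transcripts did not all differ alike. Fos, the founding member, had signals of 900.4, 5206, 2196, 1946 and 961.5 in CC, 1089.9, 1232, 1369.6, 1677 and 1789 in UC and 1249, 829.8, 1686 and 2089 in UU. CC alone spanned 900.4 to 5206 and held the highest value and 2 of the 3 lowest, so the groups overlapped throughout. The log2 difference from CC was -0.36 ± 0.39 (SE) in UC and -0.38 ± 0.41 in UU, and UC and UU differed by 0.02 ± 0.41. Without the 4 pads low in epididymal markers the differences from CC became 0.13 and 0.15. The value of 5206 came from CC replicate 2, which is among those 4 pads and had Xist signal. Without that array alone the differences from CC were 0.018 in UC and -0.0051 in UU.

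Jun, the usual partner of Fos, was read by 2 probe sets that disagreed. The brighter one had signals of 1507, 2658, 1971, 1923 and 2463 in CC, 2318, 1786, 2085, 1972 and 2315 in UC and 2994.5, 1988.5, 2477.5 and 2129 in UU. These overlapped fully, with a log2 difference of 0.01 ± 0.17 (SE, 95% interval -0.34 to 0.37) between UC and CC and 0.20 ± 0.18 between UU and CC. The dimmer one had 1964, 3107.5, 1653, 1836 and 2789 in CC, 852, 1305, 1777, 987 and 1480.4 in UC and 2796, 1338, 674 and 1549.9 in UU. Its UC values were below all CC values in every replicate but the third, and the log2 difference was -0.82 ± 0.31 for UC against CC (limma over all 20380 probe sets, unadjusted p = 0.0175, adjusted p = 0.564). The 3 arrays of highest 3′ to 5′ ratio had the 3 lowest values of this probe set, 674 to 987, against 1305 to 3108 in the other 11. Without those 3 arrays the difference between UC and CC was -0.54.

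Atf3, a stress-induced relative of the cAMP response element binding protein, had signals of 524, 1119, 716.5, 469.7 and 582 in CC, 779, 446, 335, 386 and 1264 in UC and 401, 609, 564 and 362 in UU. The groups overlapped, and the 2 highest values of all, 1119 in CC replicate 2 and 1264 in UC replicate 5, came from the 2 pads with Xist signal. Junb, a Jun relative that often restrains it, ran from 75.6 to 721 in CC, 188 to 598 in UC and 85.6 to 402 in UU. Fosb, a Fos relative, ran from 259 to 525 in CC, 219.6 to 679 in UC and 69.2 to 386 in UU. In the fit of all 12393 genes the differences for UC against CC were -0.19 ± 0.34 (Atf3), -0.29 ± 0.52 (Junb) and -0.03 ± 0.40 (Fosb), and for UU against CC they were -0.43 ± 0.36, -0.57 ± 0.55 and -0.76 ± 0.42 (SE). None passed, and these low signals leave wide intervals, such as -1.39 to 0.80 for Junb in UC against CC.

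Single pads differed from the CC mean across many members at once. CC replicate 2 had the highest value of the CC group for 7 of the 10 genes and the highest of all 14 arrays for 5, and its median deviation over the genes was 0.42 on the log2 scale. UC replicate 2 was below the CC mean for all 10 genes, with a median deviation of -0.69. UC replicates 1, 3 and 4 were below it for 7, 9 and 9 genes, and UC replicate 5 for 6, with the lowest Egr1 but the highest Atf3 and Fosb of all arrays. In UU the count ran from 3 genes in replicate 4 to 8 in replicates 2 and 3. CC replicate 2 was also an array with Xist signal, few epididymal transcripts and the highest macrophage marker level (12.73, against 10.31 to 12.62 elsewhere). Its skeletal muscle markers were high as well (11.39, with 11.56 in CC replicate 5 and 8.44 to 9.75 elsewhere). The part of these in the high values of CC replicate 2 was not tested.

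**Figure D4:**
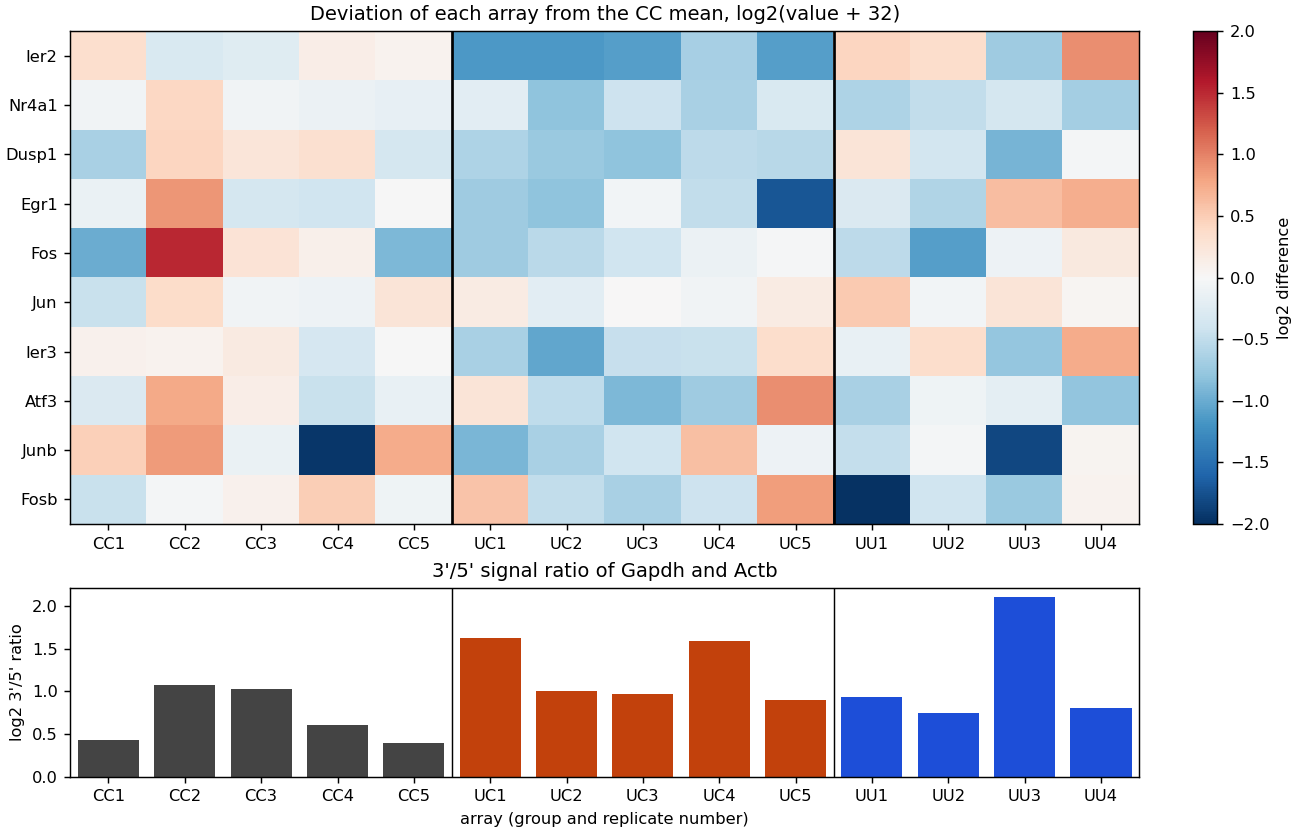
Upper panel, deviation of each array (x axis) from the CC mean of log2(signal + 32) for each gene (y axis), in red where higher and blue where lower. Lower panel, the log2 ratio of 3′ to 5′ signal of Gapdh and Actb in the same arrays. Ier2 is blue in all 5 UC columns, CC replicate 2 is mostly red, and the 3 tallest bars, 1.60 to 2.11, belong to UC1, UC4 and UU3.

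The members varied together only loosely between mice. Of 45 pairs, 36 had a positive Pearson correlation over the 14 arrays, with a median r of 0.22, and after group means were subtracted 32 were positive, with a median of 0.13. Only 5 pairs had an unadjusted permutation p under 0.05, and none passed adjustment over the 45 (smallest adjusted value 0.288). The closest pair was Ier2 and Ier3 (r = 0.67, permutation p = 0.00975, rho = 0.68, permutation p = 0.00849), with r = 0.44 without the 2 farthest arrays. Ier2 and Ier3 each had r = -0.54 with the 3′ to 5′ ratio, and the part of that ratio in this pair was not tested. Next came Nr4a1 and Atf3 (r = 0.64, permutation p = 0.0128, rho = 0.63, permutation p = 0.0181), with r = 0.48 without the 2 farthest arrays and 0.72 within groups. Genes whose promoters hold the core TGACG did not all vary together. Between them r ran from -0.01 (Fosb and Junb) to the 0.64 of Nr4a1 and Atf3. Within that range, Fos and Dusp1 had r = 0.56 (permutation p = 0.0304, rho = 0.45, permutation p = 0.105), and 0.42 without the 2 farthest arrays. Fos and Junb had r = 0.09 (permutation p = 0.769, rho = -0.0066, permutation p = 0.988), and -0.30 without those 2 arrays.

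**Figure D5:**
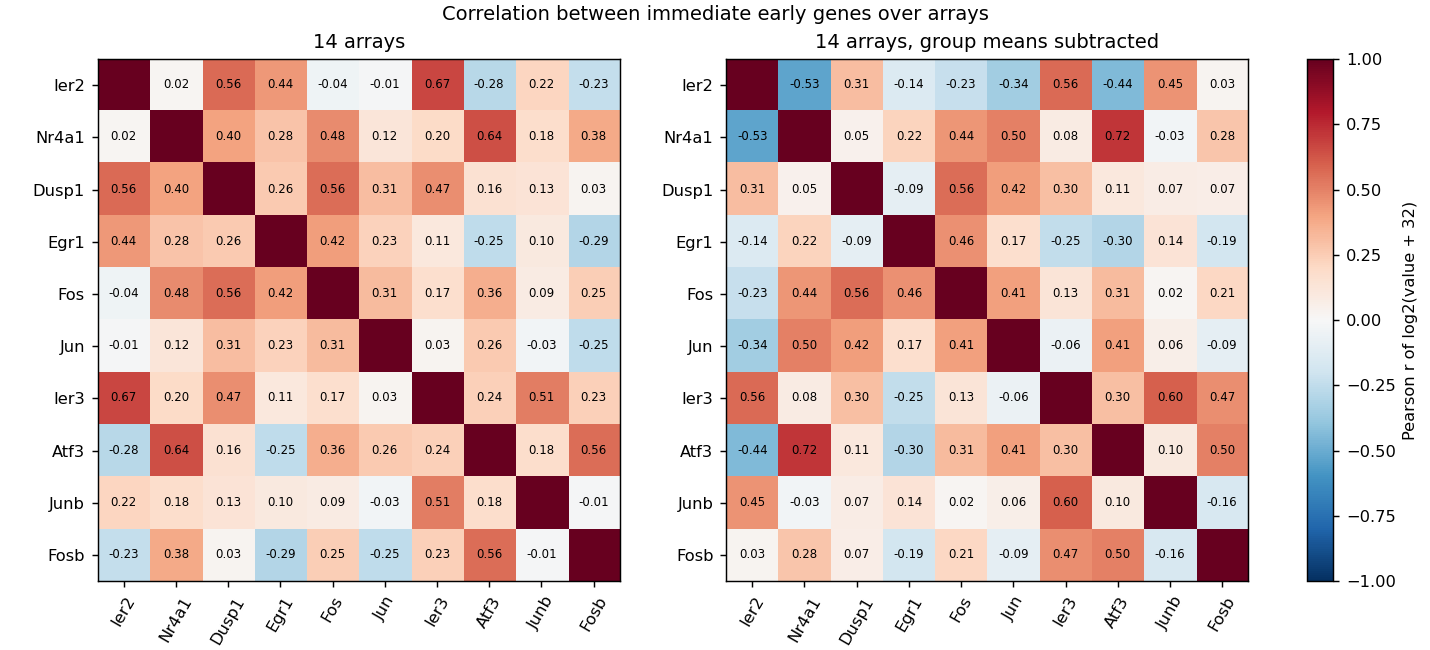
Pearson correlations of log2(signal + 32) between the 10 genes over the 14 arrays (left) and after the group means were subtracted (right), with genes on both axes and red for positive values. Ier2 with Ier3 has the highest value on the left, 0.67, and Nr4a1 with Atf3 the highest on the right, 0.72.

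Of 7430 other tested genes, the 6 whose levels over the 14 arrays were most like the mean standardised level of the members were Vit (Pearson r = 0.82), Pdpn (0.82), Dhx36 (0.80), Gpnmb (0.78), Rhoj (0.78) and Timp1 (0.78). For the last 3 the likeness rested on CC replicate 2 and UC replicate 2, since without them r was 0.15, 0.25 and 0.36. Vit kept r = 0.78, Pdpn 0.62 and Dhx36 0.57.

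Close relatives of the members did not share one direction. Of 18 relatives in the AP-1, EGR, NR4A, IER and DUSP families, 8 were bright enough to be tested, and none was called in any comparison. In UC against CC 4 of the 8 lay below 0, with a median of -0.06, and 2 were lower and 0 higher at an unadjusted p under 0.05, where 3.99% of all tested genes were lower, 4.8% higher and 50.7% below 0. These were Ier5l, an IER relative (-0.74 ± 0.27 SE, unadjusted p = 0.0146, limma adjusted p = 0.516), and Dusp6, the phosphatase that switches off ERK (-0.50 ± 0.19, unadjusted p = 0.0179, limma adjusted p = 0.516). Dusp6 signals were 1738.5, 2234, 1663, 2044 and 2199 in CC, 973, 1140.1, 1444, 1543 and 1977 in UC and 993, 1553.5, 1146 and 1514 in UU. All 4 UU values of Dusp6 were below every CC value, which held for 3.63% of all tested genes. Of the 5 UC values 4 were also below every CC value, and the UU to CC difference was -0.60 ± 0.20 (limma adjusted p = 0.176).

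Jund, the Jun relative found in most resting cells, differed by 0.07 ± 0.17 (SE) between UC and CC, 0.46 ± 0.18 between UU and CC (limma adjusted p = 0.223) and -0.39 ± 0.18 between UC and UU (limma adjusted p = 0.258). Egr2, the nearest relative of Egr1 tested, followed the epididymal markers: its signals were 311 to 756 in the 4 pads low in those markers and 3419 to 9553 in the 10 others. Egr1 did not split that way, with 6482 in CC replicate 2 and 1043 in UC replicate 5 among those 4 pads. Ier5, Jdp2, Dusp2 and Dusp10 had unadjusted p-values above 0.05 in each comparison.

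A wider list of 57 other early genes, of which 39 were tested, was also not called in any gene. In UC against CC 28 of the 39 lay below 0, with a median of -0.19 beside 0.00 and 50.7% below 0 for all tested genes, and 6 were lower and 0 higher at an unadjusted p under 0.05, against 3.99% and 4.8% of all. The 4 of smallest p were Cited2, a transcriptional co-regulator (-0.76 ± 0.18 SE, limma adjusted p = 0.436), Per1, a clock gene that cAMP and glucocorticoids induce (-0.83 ± 0.23, limma adjusted p = 0.436), Id1, an inhibitor of helix-loop-helix factors (-0.90 ± 0.28), and Gadd45g, a stress sensor (-0.80 ± 0.30). Cited2 signals were 3644, 5965, 3576, 5236 and 2870 in CC, 2594, 2597, 2257, 2540 and 2115 in UC and 2678, 3169, 2474 and 2645 in UU. All 5 UC values of Cited2 lay below all CC values, which held for 0.767% of all tested genes. Per1 signals were 1757, 770.4, 2101, 1731 and 1278 in CC, 909.9, 799.7, 901, 576 and 868 in UC and 1832, 1218, 1270.3 and 1463 in UU. Per1 was below every UU value in all 5 UC pads, which held for 2.61% of all tested genes. CC replicate 2 was the single CC pad inside the UC range.

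In UU against CC 22 of the 39 lay below 0, with a median of -0.02 beside 0.05 and 44.7% below 0 for all tested genes, and 3 were lower and 3 higher at an unadjusted p under 0.05, against 7.75% and 8.57% of all. Cited2 (-0.58 ± 0.19 SE), Plk2 (-1.08 ± 0.36), Tsc22d1 (0.57 ± 0.19) and Klf4 (-0.58 ± 0.21) had the smallest p-values. In UC against UU 28 of the 39 lay below 0, with a median of -0.23 beside -0.06 and 56.7% below 0 for all tested genes, and 8 were lower and 1 higher, against 8.8% and 9.24% of all. The 4 of smallest p were Per1 (-0.81 ± 0.25, limma adjusted p = 0.124), Zfand5 (-0.57 ± 0.19), Rgs2 (-1.41 ± 0.51) and Bhlhe40 (-1.84 ± 0.69). The Rgs2 signals of UU were 13657 in replicate 1 and 2881.5 to 4634 in the other arrays. Bhlhe40 was low in the 4 pads low in epididymal markers, of which UU has none, at 144 and 160.5 in UC and 561 and 546 in CC, against 684 to 3444 in the 10 others.

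The kinases and factors that act ahead of these genes showed no common direction. Of 43 listed, 20 were tested and none was called, and the medians were -0.01 between UC and CC, -0.08 between UU and CC, and -0.02 between UC and UU. In UC against CC 1 was lower and 2 were higher at an unadjusted p under 0.05 (3.99% and 4.8% of all genes), and the 4 of smallest p were Map2k2, the ERK kinase MEK2 (0.57 ± 0.18 SE), Prkaca, the catalytic subunit of protein kinase A (-0.48), Egfr (0.44) and Rps6ka3 (0.44). In UU against CC 2 were lower and 0 higher (7.75% and 8.57% of all genes), Pdgfrb, a growth factor receptor (-0.68 ± 0.19), and Rps6ka3 (-0.55 ± 0.23), followed by Srf (0.34) and Mrtfa (0.34). In UC against UU 0 were lower and 4 higher (8.8% and 9.24% of all genes). These were Rps6ka3, an ERK-activated kinase (0.99 ± 0.23, limma adjusted p = 0.0568), Map2k2 (0.61 ± 0.19), Mapk9, the kinase JNK2 (0.55), and Pdgfrb (0.54 ± 0.19).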

How the data were processed

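RNA of epididymal fat from 14 mice was measured on single-colour Affymetrix arrays, 1 array for each mouse, and groups and replicate numbers were taken from the labels. Each deposited value is the linear intensity signal of a probe set, which the authors computed with MAS5 in GCOS 1.3 according to the submitters' processing notes. The mean signal of each array, with 2% trimmed at each end, lay between 1500.45 and 1500.57, so differences in total RNA are not seen. Per the platform annotation, 20380 of 22690 probe sets had 1 gene symbol and 691 several; no probe set with several named a member.

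A gene with several probe sets was read from the one of highest mean, which gave 12393 genes, and signals were transformed as log2(signal + 32). The dimmest 40% of genes were left out, which left 7436. The 3 groups were fitted together in limma (version 3.58.1 under R 4.3.3) with 11 residual degrees of freedom, eBayes used a mean-variance trend, and a gene was called where its two-sided p, adjusted by Benjamini-Hochberg, was under 0.05. Members under the limit were read from the same fit without the filter. Exact permutation tests, and correlations with 100000 permutations, used scipy 1.17.1 (Python 3.11.15), and figures matplotlib 3.10.9. The fit was tested on simulated arrays.

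The members and all gene lists were chosen with earlier results of these data known. Named were all 10 members, the tested relatives, the 4 genes of smallest p in each of the 2 wider lists and the 6 genes most like the members. Alternatives covered the pseudocount, the filter, scaling, how probe sets are combined, the variance trend, weights for arrays, the groups in the fit, a replicate block, single arrays left out, and arrays or covariates for Xist, epididymal markers and the 3′ to 5′ ratio. Values within arrays of like epididymal level or like ratio were added after the data were seen. Gene positions on the arrays are not given in the sources used here; promoter sequences come from RefSeq.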

Additional observations from a re-analysis of the deposited data

Results flagged for a closer look

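Each group's highest and lowest array was compared with its neighbours in 33 groups of signals, the 11 probe sets in 3 groups, and 2 values stood apart. Chance alone sets apart about 1 group in 20. Ier2 in UC replicate 4 was 545.3, the highest of UC, and its distance to the next value made up 0.901 of the group's range (limit 0.71). It remained below the lowest CC signal of 708, and without it the UC to CC difference was -1.12. Nr4a1 in CC replicate 2 was 2037.1, the highest of CC, with a distance of 0.840 of the range. Without it the 4 other CC arrays lay between 1362.5 and 1453, still above every UC and UU value.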

How the results depend on the processing

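The 10 genes were refitted under 18 alternatives and with each array left out, and of their differences 850 kept direction and side of the threshold, 19 lost the call and 49 changed sign. All 19 concern Ier2 in UC against UU. Its call was lost, with the count of immediate early genes called at 0, without the filter (-1.28), with quantile normalization (-1.18), with only the 2 groups compared (-1.28), without the 2 arrays of highest Xist (-1.26), without the 4 lowest in epididymal markers (-1.22), without the 3 of highest 3′ to 5′ ratio (-1.68) and with the epididymal level as a covariate (-1.25). With the dimmest 60% left out Ier2 was not tested and the count was 0. Over single arrays left out the count was 0 to 1.

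The number of all genes called in UC against UU was 11 without the filter, 100 with arrays centred on the median (98 higher and 2 lower, against 54 and 9), 40 with probe set means, 7 with only the 2 groups, 3 without the Xist arrays, 1 without the low epididymal arrays, 0 without the high-ratio arrays (limma, 1163 at an unadjusted p under 0.05), 111 with the ratio as a covariate and 132 with both covariates, and 0 to 108 with single arrays left out. In UU against CC it was 1 without the filter, 3 with the dimmest 60% left out, 13 with array weights, 1 without the Xist arrays, 1 without the low epididymal arrays, 7 with the epididymal level, 1 with the ratio and 9 with both as covariates, and 0 to 2 with single arrays left out; none was a member. Members below 0 in UC against CC numbered 9 without the filter, 3 with the dimmest 60% left out and 8 with probe set means, out of 10, 4 and 8, and 4 to 6 with single arrays left out. In UU against CC they numbered 6 and 5 without the filter and with probe set means, and 3 to 4 with single arrays left out.

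With the replicate number as a replicate block, 95 genes were called between UC and UU and 6 between UU and CC, and Ier2 in UC against UU was at -1.28 (limma adjusted p = 0.0376). Deviations of same-numbered arrays correlated between -0.351 and 0.505, so the numbers were not taken to pair the mice.

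No difference that changed sign had passed the test. In UC against CC, Jun was at -0.40 with probe set means, -0.0093 without the high-ratio arrays, -0.066 with the ratio and -0.095 with both covariates; Fos at 0.13 without the low epididymal arrays; Fosb at 0.032 with median centring and 0.018 with quantile normalization; Junb at 0.036 with the ratio and 0.087 with both. In UU against CC, Jun was at -0.22 with probe set means; Egr1 at -0.0053 with the replicate block, -0.050 without the high-ratio arrays, -0.13 with the ratio and -0.13 with both; Fos at 0.15 without the low epididymal arrays; Ier3 at -0.035 with median centring, -0.031 with quantile normalization and -0.046 without the low epididymal arrays. In UC against UU, Fos was at -0.061 without the Xist arrays, -0.027 without the low epididymal arrays, -0.24 with the epididymal level, -0.023 with the ratio and -0.33 with both; Atf3 at -0.033 and -0.017 without the Xist and the low epididymal arrays; Junb at -0.23 without the high-ratio arrays. With single arrays left out, the differences that turned ranged from -0.097 to 0.10 for Jun, -0.60 to 0.018 for Fos, -0.25 to 0.13 for Fosb and -0.47 to 0.0010 for Atf3 in UC against CC, -0.090 to 0.35 for Egr1 and -0.19 to 0.31 for Ier3 in UU against CC, and -0.22 to 0.22 for Fos, -0.033 to 0.42 for Atf3, -0.14 to 0.49 for Junb and -0.0074 to 0.14 for Nr4a1 in UC against UU. The causes were not tested. The number of arrays limits the precision.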
